A study of Drosophila melanogaster with 4 samples.

Results

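The regions described here are the HP2 clusters of the euchromatic X chromosome, away from its ends and from a dense block in its middle. HP2 is a partner of heterochromatin protein HP1 in Drosophila melanogaster, and a cluster is a stretch of DNA that the authors called significantly enriched in HP2 chromatin immunoprecipitation followed by sequencing (ChIP-seq). A cluster was taken when its midpoint on X lay between positions 200001 and 20422827 on FlyBase r5, leaving out midpoints between 15.6 and 16.4 Mb. The rule used position only, but the block it leaves out was marked because clusters are dense there. It left 19.4 Mb of X to search. Replicate 1 had 665 such clusters of 4728 in its whole list (14.1%), and replicate 2 had 494 of 4163 (11.9%). The authors' combined list, made from the replicate set, had 983 of 7037 (13.97%).

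The study had 2 HP2 ChIP samples and 2 input samples, each input serving the ChIP sample of its number. All came from nuclei of heads of wild-type Oregon-R flies, given by the labels as mixed adults, and the antibody was Ab2-90. The labels give neither the age nor the sex ratio of the flies, nor whether each replicate had its own collection of flies, and the spread between replicates may therefore be technical. Heads hold many cell types, and a cluster is an average over them. With regions and scores as the only contents of the lists, the depth behind each cluster is unknown.

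HP1 binds histone H3 that is methylated at lysine 9, and HP2 was found as one of its partners. Both proteins are known above all from the pericentric heterochromatin and from chromosome 4. X differs from the autosomes in copy number, since males carry a single X and females a pair, and in male flies the X is also the target of dosage compensation.

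Most clusters on euchromatic X were close to 2 kb long. Median lengths were 2046 bp (replicate 1) and 2009.5 bp (replicate 2), with the middle 50% of clusters between 1750 and 2364 bp and between 1751.5 and 2217.5 bp. The shortest measured 1302 and 1301 bp and the longest 8381 and 5909 bp. Clusters over 4 kb were rare: 21 of 665 (3.16%) in replicate 1 and 10 of 494 (2.02%) in replicate 2. The longest 66 and 49 clusters, at most 10% of each list on X, held 17.8% and 17.1% of all cluster bases.

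The lengths on X had a broader lower side than those on the other arms. Clusters under 1800 bp made up 27.2% of X clusters in replicate 1, against 18.2% on distal 2L, 21.4% on distal 3L and 20.3% on distal 3R. In replicate 2 the shares were 27.9% on X against 22.3%, 22.9% and 22.0%. The band from 1800 bp up to 2200 bp was smaller on X, with 38.8% of clusters in replicate 1 and 45.7% in replicate 2, against 47.1% to 50.0% and 48.9% to 52.1% on the 3 arms. X thus stood outside the range of the 3 arms in both bands and both replicates. Here distal means more than 200 kb from the telomere-side end and more than 2 Mb from the centromere-side end, and 2L was taken without midpoints between 9.9 and 10.7 Mb, a block as large as that left out on X.

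**Figure D1:**
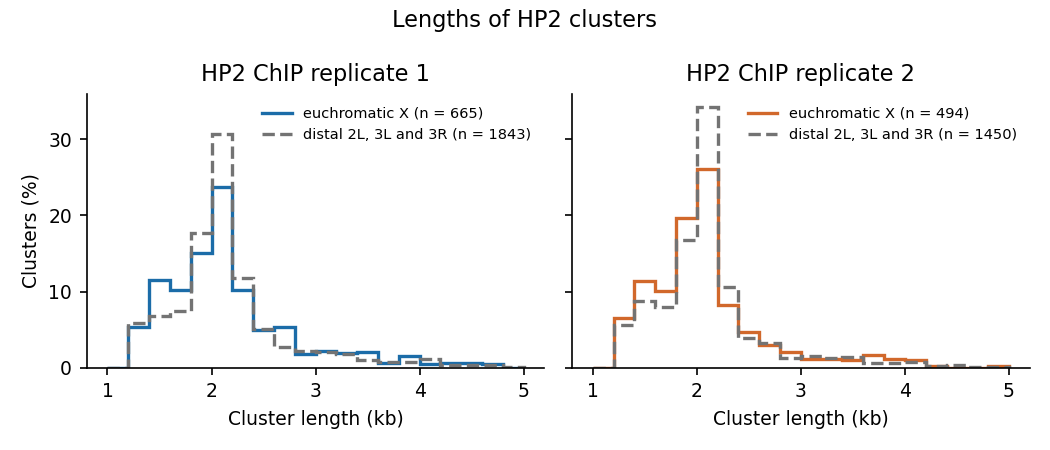
Share of clusters (%, vertical axis) by cluster length (kb, horizontal axis, bins of 200 bp) for euchromatic X (solid) and distal 2L, 3L and 3R pooled (dashed), one panel per replicate; clusters over 5 kb lie outside the axis. Both peak from 2000 bp up to 2200 bp, the peak on X is lower, and X has more clusters under 1800 bp.

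The longest clusters that recurred were spread over the whole arm. Shared clusters are those with 50% or more of their length inside clusters found in the other replicate. The longest shared one ran from 4823538 to 4831918 (8381 bp), with an authors' score of 1.00, and replicate 2 covered 90.2% of it. That coverage came from separate, shorter clusters, from 4823783 to 4827646 and from 4827696 to 4831387, so its full length was called in replicate 1 only. The next ran from 19586488 to 19592623 (6136 bp, score 0.958), and replicate 2 had 1 cluster there from 19586547 to 19592455 with a score of 0.836. The third, from 16860214 to 16865832 (5619 bp, score 1.04), was 75.7% covered in replicate 2. The score is the authors' own positive value per cluster. The sources used here do not give its scale, so it serves only to rank and describe clusters within a list.

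Among the other 7 of the 10 longest, the boundaries were closest for the cluster from 1973438 to 1978899 (score 1.70). Its counterpart in replicate 2 ran from 1973439 to 1978859 (score 1.51) and covered 99.2% of it. The cluster from 5792291 to 5797050 (score 1.27) was the least covered of the 10, at 60.1%. The remaining 5 began at 19388296, 6649269, 13021309, 11039768 and 8300539, measured 4608 to 5574 bp and were 77.1% to 95.4% covered in replicate 2. Those at 6649269 and 13021309 were each split into separate clusters in replicate 2, with breaks after 6652326 and after 13024087. Of these 10, 1 lay in a local run of clusters (defined with the runs below), against 92 of all 440 shared X clusters of replicate 1.

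The highest scores belonged to other, mostly shorter clusters. Of the 10 longest and the 10 highest-scoring shared clusters only 1 was in both sets, that from 11039768 to 11044525, with scores of 2.04 in replicate 1 and 2.25 in replicate 2. The highest score of replicate 1 was 2.53, for a cluster of 2417 bp from 1028046 to 1030462, which scored 1.59 in replicate 2. The highest of replicate 2 was 2.46, for the cluster that ran from 20058899 to 20061641 in replicate 1 and scored 2.42 there. So the top rank differed between replicates, while both of these clusters recurred.

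The next by score in replicate 1 ran from 13276852 to 13279136 (scores 2.41 and 1.77), from 13456646 to 13458973 (2.41 and 2.33) and from 12476022 to 12478624 (2.30 and 2.24). Another 2 lay in 1 crowd near the telomere side, from 2503344 to 2505515 (2.23 and 1.63) and from 2510486 to 2512712 (2.14 and 1.70), with a cluster of score 0.617 found in replicate 1 only between them. The last of the set ran from 7800921 to 7803716 (2.13 and 1.95) and from 10661221 to 10663921 (2.02 and 1.87). Of the 10, 4 lay in runs, against 92 of all 440 shared X clusters of replicate 1. Replicate 2 covered between 77.1% and 99.4% of each, where at least 50% was set by the choice of shared clusters.

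Scores on X were higher than on the 3 arms in their lower part. The lowest score reached 0.297 in replicate 1 and 0.295 in replicate 2, while over the 3 arms and both replicates it lay between 0.0863 and 0.198. Median scores of 0.724 (replicate 1) and 0.700 (replicate 2) stood against 0.602 to 0.619 and 0.599 to 0.620 on the 3 distal arms, and 0.719 and 0.717 over the whole lists, which include heterochromatin. The lower quartile showed the same order, 0.597 and 0.581 on X against 0.452 to 0.470 and 0.452 to 0.483. The upper quartile did not stand apart: 0.971 in replicate 1 lay inside the range of the 3 arms, 0.954 to 0.975, and 0.918 in replicate 2 lay just under it, 0.928 to 0.947. Clusters scoring under 0.6 made up 25.9% of X clusters in replicate 1 and 28.3% in replicate 2, against 48.9% and 49.0% on the 3 arms together. Since the X copy number of the mixed flies is not known from the files, its part in these scores was not tested. Longer clusters scored higher on X (Spearman rho 0.72 across 665 clusters and 0.71 across 494), a description across clusters that share a library.

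Spacing was uneven on X, as on the 3 distal arms, with many near neighbours and a long tail of empty stretches. The gap from the end of a cluster to the start of the next had a median of 10804 bp in replicate 1 and 14495 bp in replicate 2. The middle 50% of gaps ran from 3982.5 to 28980.5 bp and from 4825.5 to 42737 bp. Gaps under 5 kb made up 30.0% of the 663 gaps of replicate 1 and 25.6% of the 492 gaps of replicate 2, while 38 (5.73%) and 52 (10.6%) exceeded 100 kb. The SD of the gaps was 1.59 times their mean in replicate 1 and 1.50 times in replicate 2. On the 3 distal arms this ratio was 1.31 to 1.55 in replicate 1 and 1.23 to 1.59 in replicate 2. Gaps over 100 kb were more common there, with 7.31% to 11.1% and 11.4% to 15.2%. Gaps under 5 kb were less common there, with 19.6% to 26.5% and 16.2% to 22.8%.

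The longest gap of both replicates was the same one, from 7219394 to 7596399 in replicate 1 (377.0 kb) and from 7219302 to 7596539 in replicate 2 (377.2 kb), although the combined list placed 3 clusters inside it. Next among the stretches free of clusters in both replicates were those from 18795511 to 19055764 (260.3 kb) and from 14217246 to 14476047 (258.8 kb). The stretches from 9673664 to 9903390 (229.7 kb) and from 14497555 to 14719217 (221.7 kb) followed. The combined list had 0 clusters inside the second and the fourth of these 5 and 1 inside each of the third and the fifth. In all, 36 stretches of over 100 kb were free in both replicates, and they made up 5.90 Mb or 30.4% of the X searched. The matching share was not computed for the other arms. That a stretch holds no called cluster leaves the HP2 signal in it unmeasured here. Single lists differed more: the second-longest gap of replicate 2, from 4100872 to 4423297 (322.4 kb), was not among the 5 longest of replicate 1.

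**Figure D2:**
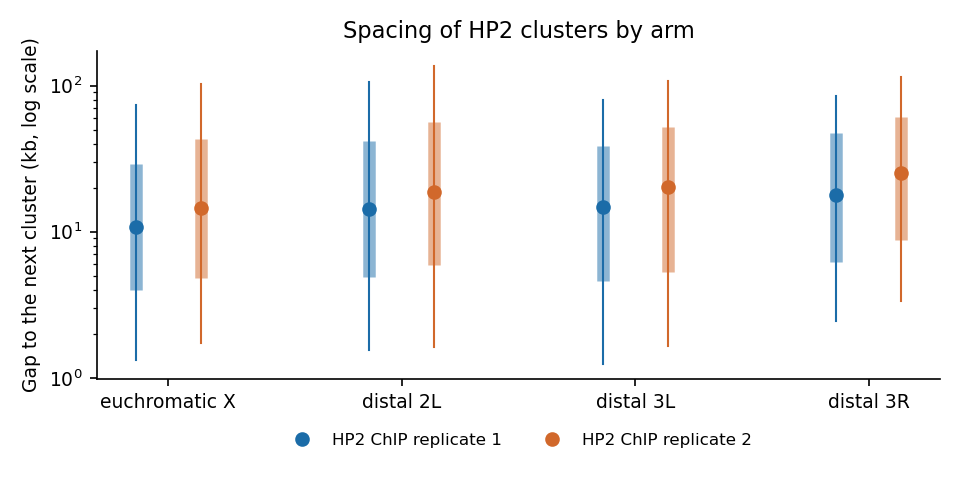
Gap from each cluster to the next (kb, log axis) on euchromatic X and distal 2L, 3L and 3R, for both replicates. Points are medians, thick bars the middle 50% of gaps and thin lines the 10th to 90th percentile; the median of X is the lowest of the 4 arms in each replicate.

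Coverage along X had a similar profile in both replicates. In 19 bins of about 1 Mb, the share of bases in clusters averaged over both replicates ran from 3.91% to 9.89%. The fullest bin, from 6200001 to 7200000, had 10.8% of its bases in clusters in replicate 1 and 9.00% in replicate 2, in 45 and 42 clusters. It was followed by the bin from 16400001 to 17400000, with 9.22% and 8.13%, and that from 1200001 to 2200000, with 10.4% and 6.53%. The emptiest, from 4200001 to 5200000, was 4.50% and 3.33% covered, with 18 and 14 clusters. The Spearman rho between the replicates over the 19 bins was 0.91, a description across bins of the same chromosome. Replicate 1 had the higher coverage in all 19 bins.

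**Figure D3:**
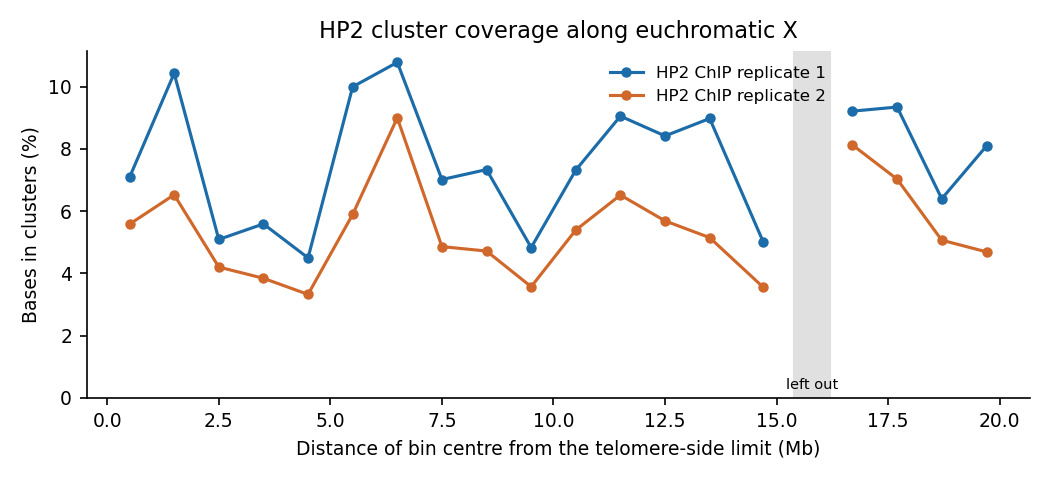
Bases in clusters (%) in bins of about 1 Mb along euchromatic X, against the distance of the bin centre from the telomere-side limit (Mb), for both replicates; the grey band is the block left out. Both lines peak in the bin from 6200001 to 7200000, at 10.8% and 9.00%, and are lowest in that from 4200001 to 5200000, at 4.50% and 3.33%.

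Local crowds are described by the densest windows. These were picked as the highest, so they lie above the median window by that choice, and windows of the other arms were not measured. Over sliding windows of 200 kb the median window had 7.26% of its bases in clusters of replicate 1 and 5.03% in those of replicate 2, and held 6 and 5 clusters. The densest, by the mean of both replicates, ran from 19450001 to 19650000, with 23.5% and 15.4% covered by 20 and 13 clusters (19.5% ± 5.72, SD, n = 2). The second, from 6070001 to 6270000, was 20.1% and 16.0% covered by 17 and 14 clusters (18.1% ± 2.91, SD, n = 2). Their order turned between replicates: the first window ranked 1st in replicate 1 and 6th in replicate 2, and the second ranked 11th and 1st. These ranks count all 1904 overlapping windows, so shifted windows over the same crowd can fill several ranks. In replicate 2 the 2 windows differed little, with 15.4% and 16.0%. The next 3 windows began at 6460001, 1840001 and 7950001 and averaged 15.6% to 15.9%. The windows that began at 6070001 and 6460001 both touched the fullest bin.

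Runs, defined as at least 5 clusters with gaps of at most 10 kb, held a small part of the clusters. Replicate 1 had 22 runs with 132 of its 665 clusters (19.8%), against 11.7% of clusters in runs on distal 2L, 3L and 3R together. Replicate 2 had 6 runs with 35 of 494 clusters (7.09%), against 5.52%. Distal 2L alone was close to X, with 18.8% in replicate 1 and 8.68% in replicate 2, and the other 2 arms were lower, with 8.45% to 9.73% and 4.28% to 4.31%. The lengths of runs were alike, with medians of 33.1 and 32.9 kb. All 6 runs of replicate 2 overlapped a run of replicate 1. Replicate 1 had the denser list, which favours overlap in this direction, and overlaps of runs on the other arms were not counted. The other 16 runs of replicate 1 had between 1 and 5 clusters of replicate 2 inside them, too few or too far apart to make a run.

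The largest recurrent run lay at 11451792 to 11506781, where replicate 1 had 9 clusters and replicate 2 had 9 from 11451850 to 11517022. Its clusters scored 0.628 to 1.07 in replicate 1. The run from 2497036 to 2541662 had 8 clusters in replicate 1 and overlapped a run of 5 in replicate 2, and it included both high-scoring clusters named above. Those from 6866427 to 6910268 and from 1751994 to 1785202 had 6 clusters each in replicate 1, and the overlapping runs of replicate 2 had 6 and 5. The runs from 6223326 to 6247347 and from 16530748 to 16550291 had 5 clusters in each replicate, and the latter was 54.0% covered in replicate 1 and 51.0% in replicate 2. Uncovered sequence lay between the clusters of a run: the 22 runs of replicate 1 were 31.8% to 54.0% covered.

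Coverage was also raised on the centromere side of the block that was left out, and only a little on its other side. Euchromatic X as searched had 7.55% of its bases in clusters of replicate 1 and 5.37% in those of replicate 2. The 400 kb to the right had 12.8% of its bases in clusters of replicate 1 and 11.3% in those of replicate 2. The next 400 kb had 8.99% and 8.08%. On the left, the 400 kb before the block was 8.50% and 6.30% covered, and the 400 kb before it 5.39% and 2.87%, below the values of X as searched. Inside the block, the left 400 kb was 23.1% and 18.9% covered and the right 400 kb 16.0% and 12.7%. The step at the right edge of the block was 16.0% against 12.8% in replicate 1 and 12.7% against 11.3% in replicate 2.

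The position limits fell between clusters. At the start of the block, the last cluster inside the search ran from 15596770 to 15599084 in replicate 1 (score 1.27), and the first one left out from 15603444 to 15607651 (1.24). In replicate 2 these were 15596861 to 15599086 (1.03) and 15603377 to 15607592 (1.16). At its end, the last cluster left out ran from 16341520 to 16344358 (1.22 in replicate 1; 0.888 for its counterpart from 16341580 in replicate 2), and the first taken began at 16419303 (0.725) in replicate 1 and 16426139 (0.642) in replicate 2. At the telomere side, the last left out ended at 176834 and 176792 (scores 0.404 and 0.559), and the first taken began at 322706 in replicate 1 (1.39) and 228203 in replicate 2 (0.522). At the centromere side, the last taken began at 20380703 and 20380695 (0.647 and 0.762), and the next cluster outside only at 20898358 in replicate 1 (0.903) and 20630721 in replicate 2 (0.380).

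Recurrence was asymmetric between the replicates. In replicate 2, 447 of 494 X clusters were shared (90.5%, 95% Wilson interval 87.6% to 92.8%), against 83.5% of its whole list and 93.9% on distal 2L, 3L and 3R. In replicate 1, 440 of 665 were shared (66.2%, 62.5% to 69.7%), against 74.3% over its whole list and 72.9% on the 3 arms. The numbers of shared clusters were nearly equal, 440 and 447, so the asymmetry lay in the 219 clusters of replicate 1 and the 45 of replicate 2 that touched no cluster of the other list. Over the whole lists 75.8% and 85.7% touched one, and on the 3 arms 73.3% and 94%. Another 6 and 2 clusters touched one with less than 50% of their bases. The intervals cover counting error only, and neighbouring clusters are not independent.

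Clusters that did not recur were shorter and scored lower in their medians. The 219 found in replicate 1 only had a median length of 1686 bp and a median score of 0.610, against 2156 bp and 0.848 for the shared ones. The 45 found in replicate 2 only had medians of 1525 bp and 0.633, against 2031 bp and 0.710. The median distance to the nearest cluster of the other list was 7949 bp and 4492 bp. The combined list touched 214 of the 219 and 44 of the 45. It was made from the same replicate set, so this is no separate evidence for these clusters.

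Longer clusters were shared more. Whether the relation with score differed between short and long clusters was not tested. The X clusters of each list were put into 5 classes of nearly equal size by length. In replicate 1 the share of shared clusters was 24.1% in the shortest class (17.6% to 32.0%), 50.4% in the next and 82.7% to 88.7% in the 3 longest. In replicate 2 it was 68.7% in the shortest class (59.0% to 77.0%) and 98.0% to 100% in the 3 longest. By score, the 5 classes of replicate 1 gave 42.9%, 46.6%, 58.6%, 83.5% and 99.2% from the lowest to the highest, and those of replicate 2 between 84.8% and 100%. With both quantities split at their medians, 18 of the 49 short clusters of higher score in replicate 1 were shared (36.7%, 24.7% to 50.7%) and 260 of the 283 long ones (91.9%, 88.1% to 94.5%). Among those of lower score, 129 of 284 short ones (45.4%) and 33 of 49 long ones (67.3%) were shared. In replicate 2 all 32 long clusters of lower score and all 215 of higher score were shared, so no relation with score could show among them. Of its short clusters, 179 of 215 of lower score (83.3%, 77.7% to 87.7%) and 21 of 32 of higher score (65.6%, 48.3% to 79.6%) were shared. Among short clusters the share was thus lower at higher score in both lists, with intervals that overlapped in each.

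High-scoring clusters of 1 replicate only were few. In replicate 1 the highest, from 13007984 to 13009506 (1523 bp), scored 1.07, and the nearest replicate 2 cluster was 942 bp away. It was followed by 10628071 to 10630893 (0.943), 14101031 to 14104290 (0.934), 8126407 to 8127889 (0.932) and 12408538 to 12410412 (0.925). The third of these lay 9 bp from a cluster of replicate 2. In replicate 2 the highest, from 15547270 to 15548786, scored 0.850 and lay 41614 bp from the nearest cluster of replicate 1. The others of replicate 2 ran from 17555878 to 17557562 (0.789), 11185366 to 11186889 (0.785), 6236413 to 6238098 (0.771) and 1281898 to 1283274 (0.769). All 10 were touched by the combined list, made from the same replicate set, which covered at least 73.1% of each.

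Among clusters of middling score, the share that was shared was lower on X than on the 3 arms within the same list. For replicate 1 scores from 0.6 to 0.8, 126 of 223 X clusters were shared (56.5%, 49.9% to 62.8%), against 84.0% on 2L, 89.3% on 3L and 82.6% on 3R (85.3% together, 80.8% to 88.9%). From 0.8 to 1 the values were 79.8% on X (71.7% to 86.1%) and 98.1% on the 3 arms (95.2% to 99.3%). At scores of 1 and over, 150 of 151 X clusters and all 433 of the others were shared. Under 0.6 the values were 40.1% on X (33.1% to 47.6%) and 49.9% on the 3 arms (46.6% to 53.1%). That band held 25.9% of X clusters but 48.9% of those on the 3 arms, so equal scores stood at different ranks. In replicate 2 the band from 0.6 to 0.8 gave 84.1% on X (78.1% to 88.7%) and 96.4% on the others (93.4% to 98.1%), and the other bands gave values with overlapping intervals. These bands were chosen with the scores known, and the difference between arms was not tested beyond the arm-level test of all shared clusters below.

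**Figure D4:**
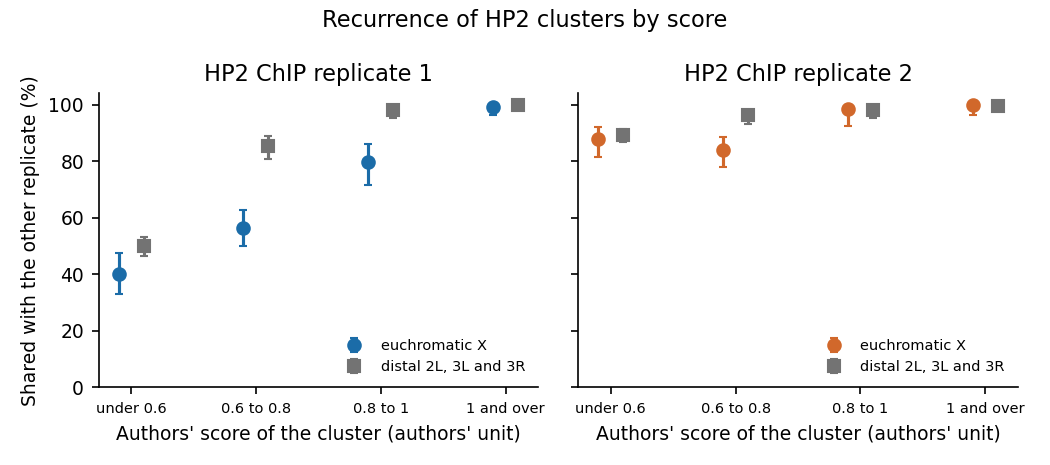
Share of clusters shared with the other replicate (%) by the authors' score, for euchromatic X (circles) and distal 2L, 3L and 3R pooled (squares), with 95% Wilson intervals, one panel per replicate. In replicate 1 X lies at 56.5% against 85.3% in the band from 0.6 to 0.8, and both are near 100% from a score of 1.

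Where a cluster was found in both lists, its edges differed little. Of the X clusters of replicate 1, 434 had a partner in replicate 2 with at least 50% overlap of both, and 68.9% of the whole list and 72.5% of clusters on the 3 arms met that rule. For replicate 2 the shares were 78.2% and 92.2%. The median offset was 78 bp at the starts and 73 bp at the ends, against 49 to 55 bp and 50 to 58 bp on the 3 arms. The replicate 1 cluster was the longer one in 339 of the 434 pairs (78.1%), by a median of 115.5 bp over all pairs. The scores of the pairs had a Spearman rho of 0.77 on X and 0.85 to 0.87 on the 3 arms, a description across pairs from the same 2 libraries. Splitting was rare: 6 clusters of replicate 1 touched 2 or more of replicate 2, and 3 did so the other way round.

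The combined list added many short clusters. Of its 983 X clusters, 441 touched both replicates (44.9%), 205 replicate 1 only (20.9%), 43 replicate 2 only (4.37%) and 294 neither (29.9%, 27.1% to 32.8%). Over the whole combined list 31.4% touched neither, and on distal 2L, 3L and 3R 25.1%. On these 3 arms 51.8% to 53.9% touched both, 18.0% to 19.0% replicate 1 only and 2.58% to 3.66% replicate 2 only. The X clusters touching both had a median length of 2397 bp and a median score of 0.711, and those touching neither 1246 bp and 0.468. Of the 294 on X, 159 (54.1%) were shorter than 1301 bp, against 51.2% on 2L, 54.8% on 3L and 50.4% on 3R. The shortest cluster of either replicate list had 1301 bp, so clusters under that length had no counterpart of their size there.

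Euchromatic X was the arm with most clusters per length among the 4 compared. It had 34.2 clusters per Mb in replicate 1 and 25.4 in replicate 2, against 24.9 to 29.4 and 20.1 to 22.8 on the 3 distal arms. The mean was 29.8 ± 6.23 (SD, n = 2), or 5.68 per Mb above the mean of the others, a difference that was 7.21 in replicate 1 and 4.15 in replicate 2. Coverage followed, with 7.55% and 5.37% of bases (6.46% ± 1.55, SD, n = 2) against 5.67% to 6.34% and 4.41% to 4.78%. In the exact two-sided permutation over 4 arms each gave p = 0.25, the smallest that this design allows (adjusted p = 0.5, Benjamini-Hochberg over 6 measures), so no measure could pass a threshold of 0.05. The SD of the difference between replicates was 2.17 per Mb and 0.559 percentage points, smaller than the differences of 5.68 per Mb and 1.23 points.

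The other measures followed in part. The median gap of 12649.5 bp ± 2610 (SD, n = 2) was the shortest of the 4, with a difference of -5850 bp from the mean of the others (exact permutation p = 0.5, adjusted p = 0.6), since 3R lay farther from its own 3 others on the other side. The median length of 2028 bp ± 25.8 was the lowest, with a difference of -33.25 bp (exact permutation p = 0.5, adjusted p = 0.6). Among clusters scoring at least their list's median the difference was -2.42 bp, and X was then no longer the lowest of the 4. The share of shared clusters, 78.3% ± 17.2, was the lowest, with a difference of -5.09 percentage points (exact permutation p = 0.25, adjusted p = 0.5), -6.82 in replicate 1 and -3.37 in replicate 2. The share of clusters in runs, 13.5% ± 9.03, was second to 2L with 13.8% ± 7.18 (exact permutation p = 0.75, adjusted p = 0.75). Its difference from the mean of the others, 4.42 points, rested on replicate 1: it was 7.51 points there and 1.32 in replicate 2. With gaps of at most 5 kb in a run it was -0.0952 points.

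**Figure D5:**
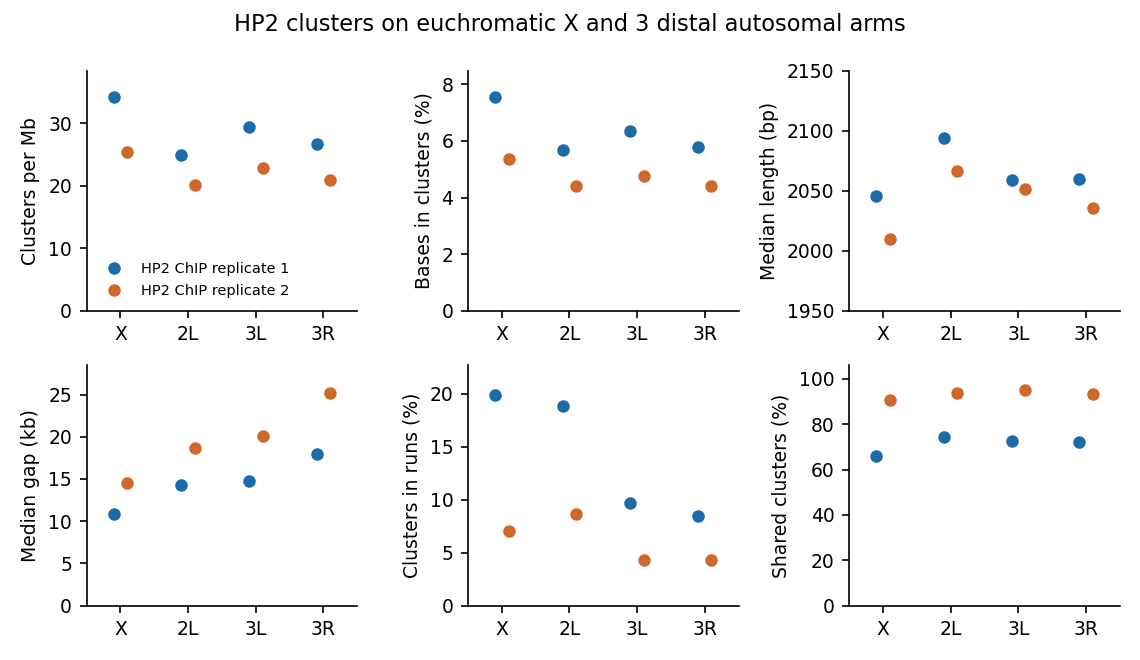
The 6 measures for euchromatic X and distal 2L, 3L and 3R; each point is 1 HP2 ChIP replicate, and the axis of median length does not start at 0. X has the most clusters per Mb and the highest coverage in each replicate, 34.2 and 25.4 per Mb, and the lowest share of shared clusters, 66.2% and 90.5%.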

How the data were processed

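HP2 ChIP-seq clusters of 2 ChIP replicates and 1 combined list were used. The submitters' processing notes name Bowtie 0.12.7, and per the file headers positions refer to FlyBase r5 (counted from 1). Not given in the sources used here are the caller, its threshold, the scale of the score and how the combined list was made. The authors' score is 1 positive value per cluster in the deposited lists. Input libraries bear on the values solely through those calls, and depth is unknown. Placing by midpoint, lengths, gaps (not counted across a left-out block), coverage with overlapping bases counted once, sharing at 50% of bases and runs were computed with Python 3.11.15, numpy 2.4.6 and scipy 1.17.1. Of these, sharing, runs and a single gap were checked on simulated data. Arms were compared by an exact two-sided permutation of which of the 4 arms was X, on the mean of both replicates. Shares have 95% Wilson intervals. Regions named are the 10 longest and the 10 highest-scoring shared clusters, the 5 densest windows of 200 kb moved in steps of 10 kb, the 5 longest free stretches, the 5 highest-scoring clusters of a single list, the runs found in both replicates with most clusters (6, since the last tied) and clusters at the limits. Members and rules were chosen with earlier results of these data known. Sequences and genes under the clusters were not analysed here, since the gene table at hand is on a later release of the assembly. Alternatives were score filters, merging, the combined list, single replicates, other left-out blocks, windows, runs and overlaps.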

Additional observations from a re-analysis of the deposited data

How the results depend on the processing

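Of 53 alternative values for the 6 differences between euchromatic X and the 3 arms, 52 kept their direction, and that for runs with gaps of at most 5 kb turned to -0.0952 percentage points. Several differences moved by more than 1.5 times. Among clusters scoring at least their list's median they were -2.42 bp in median length, -20490 bp in median gap, 2.31 points in runs and -9.47 points in sharing, and sharing with the whole other list differed by -9.41 points. In the combined list they were 13.5 clusters per Mb, 3.00 points of coverage, -20.7 bp in length and 17.6 points in runs. The difference in runs was 9.97 points with gaps of at most 20 kb, 7.95 with the X block kept and 2.51 with the 2L block kept. That in length was -18.1 bp after merging and -20.2 bp with the X block kept. Leaving out a replicate gave differences of 4.15 to 7.21 clusters per Mb, 0.837 to 1.63 points of coverage, -41.7 to -24.8 bp in median length, -6836 to -4864 bp in median gap, 1.32 to 7.51 points in runs and -6.82 to -3.37 points in sharing. When clusters under their list's median score were dropped, X had 14.6 clusters per Mb, 3.67% coverage, a median length of 2241 bp, a median gap of 34410.0 bp and 2.71% of clusters in runs. In the combined list it had 50.6 per Mb, 10.8%, 2001 bp, 6649 bp and 41.0%. Merging within 1 kb made the median length 2059 bp. The share in runs was 1.28% with gaps of at most 5 kb, 36.6% with 20 kb and 23.2% with at least 4 clusters. The densest window held 26.2% at 100 kb and 13.4% at 500 kb. Fewer or more clusters and other limits define these settings; for the combined list the cause was not tested. Widening the block by 400 kb on each side was chosen after seeing the data and reversed none of the 6. The 19 named shared clusters were picked as at least 50% covered by replicate 2, and all stayed so under 3 settings. Merging can only add covered bases, and the combined list comes from the same replicate set, so neither was a separate check. With only the clusters of replicate 2 scoring at least their list's median, the 19 were 53.1% or more covered. No paired analysis was possible because the groups that share replicate numbers are ChIP and input, and the input libraries have no values of their own here; X and the other arms were compared within each replicate, and those differences are the values given for single replicates. Unknown depth and 2 replicates limit the calls, and arms as units allow no p below 0.25.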

Other observations

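The surplus of clusters in replicate 1 was spread unevenly over X. Replicate 1 had more clusters than replicate 2 in all 19 bins of about 1 Mb, by a ratio of 1.35 on the whole of euchromatic X and 1.24 to 1.29 on distal 2L, 3L and 3R. The ratio was highest in the bins from 13200001 to 14200000 (43 against 24 clusters, 1.79) and from 1200001 to 2200000 (51 against 29, 1.76). It was lowest from 6200001 to 7200000 (45 against 42, 1.07) and from 16400001 to 17400000 (39 against 36, 1.08). Mean coverage was 7.07% and 8.48% in the 2 bins of highest ratio, and 9.89% and 8.67% in the 2 of lowest ratio. The bin from 2200001 to 3200000, with a low ratio of 1.14, had 4.65%. A relation between coverage and ratio was not tested.

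The highest-scoring X cluster of the combined list touched neither replicate. It ran from 8188546 to 8189546, measured 1001 bp and scored 3.11. The second, from 15167978 to 15168978, had the same length of 1001 bp and a score of 2.70. The next by score among those touching neither ran from 897630 to 898630 (1.96), from 3395452 to 3396580 (1.64) and from 12275828 to 12276964 (1.11). Distal 3L was like X in this, as its highest score in the combined list, 3.43, also belonged to a cluster touching neither replicate. On distal 2L and 3R the highest scores, 2.99 and 3.52, belonged to clusters touching both. Clusters of exactly 1001 bp, the shortest length in the combined list on X, numbered 19 of 983 on X. Distal 2L had 3 of 685, distal 3L 6 of 890 and distal 3R 6 of 955.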
